A study of Mus musculus with 16 samples.

Results

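The protein kinase C (PKC) family was followed in stem and progenitor cells of mice with little PU.1. PU.1, encoded by *Spi1*, is a transcription factor of the myeloid and B lymphoid lineages, and URE mice lack its upstream regulatory element, an enhancer of *Spi1*, as a germline deletion. The 8 members were *Prkca*, *Prkcb*, *Prkcd*, *Prkce*, *Prkch*, *Prkci*, *Prkcq* and *Prkcz*, taken by symbol from the 54347 genes measured. The family was chosen by a measured value, since *Prkcz* is among the largest rises of URE LSKs. The LSK comparison of the members is therefore given as a description with no test, as is every comparison between cell types for *Prkcz*.

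RNA-seq was made from sorted bone marrow cells of URE mice and WT littermates, on a C57BL/6 background and 8 to 12 weeks old. LSKs (Lin-Sca-1+c-Kit+ cells) hold the stem cells and multipotent progenitors, and GMPs (Lin-Sca-1-c-Kit+Cd16/32+ cells) are the progenitors of neutrophils and monocytes. The 4 groups, WT LSK, URE LSK, WT GMP and URE GMP, held 4 libraries each, numbered 1 to 4, and the labels list no further allele or treatment. Levels are in CPM, a gene's count relative to the library's total after scaling by edgeR's TMM factors, and errors of means are SDs with n = 4.

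PKCs are serine/threonine kinases that fall into 3 classes by what activates them. The classical isozymes (alpha, *Prkca*, and beta, *Prkcb*) need calcium and diacylglycerol, the nPKC isozymes (delta, *Prkcd*, epsilon, *Prkce*, eta, *Prkch*, and theta, *Prkcq*) need diacylglycerol but no calcium, and the atypical isozymes (iota, *Prkci*, and zeta, *Prkcz*) need neither and work through protein partners such as PAR6 and p62. Phospholipases C make the diacylglycerol and diacylglycerol kinases remove it. In blood cells, PKC beta acts downstream of the B cell receptor and PKC theta downstream of the T cell receptor, both towards NF-kB.

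The genes lie apart from each other in the GRCm38 annotation. *Prkca* is at chr11:107933387-108343928 (minus strand), *Prkcb* at chr7:122288751-122634402 (plus), *Prkcd* at chr14:30595354-30626210 (minus) and *Prkce* at chr17:86167785-86657919 (plus). *Prkch* is at chr12:73584796-73778185 (plus), *Prkcq* at chr2:11172108-11301222 (plus), *Prkci* at chr3:30995747-31052959 (plus) and *Prkcz* at chr4:155260129-155361361 (minus). Of their exonic bases, *Prkce* shares 472 (6.5%) with AC154542.1 on the same strand and *Prkca* 30 with *Apoh* on the other, and the libraries do not record strand. *Prkcz* has a processed pseudogene, *Prkcz2*, at chr7:27882755-27884510, with 0 to 32 counts in the 16 libraries. Reads common to *Prkcz* and *Prkcz2* could have been split between them. The counts of *Prkcz2* are of the size of the *Prkcz* counts in WT libraries and far below those in URE LSKs. In URE GMPs *Prkcz2* reached 30 counts, as many as *Prkcz* held in its lowest library there, replicate 2.

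Counts were available per gene, so a change between isozymes can be read from them but a change between transcripts of a gene cannot. *Prkcz* has 10 annotated transcripts, 5 of them protein coding, and 3 starts in RefSeq, and the counts do not tell these starts apart. The 250 bases before the upstream-most starts of *Prkcz* are shown beside those of *Prkci*, the other atypical gene, because *Prkcz* had the largest fold change of the members and *Prkci* among the smallest. They are RefSeq sequences on GRCm38.p6, written 5′ to 3′ on the gene's strand, and would carry in capitals the core of PU.1 sites, GAGGAA, or of RUNX sites, TGTGGT, on either strand. None of the 3 holds either core.

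*Prkcz*, the first start, chr4:155361429-155361678, minus strand: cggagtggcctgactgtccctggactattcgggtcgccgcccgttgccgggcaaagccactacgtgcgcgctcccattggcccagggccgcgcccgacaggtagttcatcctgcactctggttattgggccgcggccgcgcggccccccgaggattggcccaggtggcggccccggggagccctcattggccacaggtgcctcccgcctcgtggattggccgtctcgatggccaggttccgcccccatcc

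*Prkcz*, the second start, chr4:155345790-155346039, minus strand: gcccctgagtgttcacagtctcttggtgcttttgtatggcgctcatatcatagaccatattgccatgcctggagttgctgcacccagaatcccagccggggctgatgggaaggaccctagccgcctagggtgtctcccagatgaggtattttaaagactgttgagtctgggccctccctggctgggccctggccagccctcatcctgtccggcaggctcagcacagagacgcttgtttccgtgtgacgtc

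*Prkci*, chr3:30995521-30995770, plus strand: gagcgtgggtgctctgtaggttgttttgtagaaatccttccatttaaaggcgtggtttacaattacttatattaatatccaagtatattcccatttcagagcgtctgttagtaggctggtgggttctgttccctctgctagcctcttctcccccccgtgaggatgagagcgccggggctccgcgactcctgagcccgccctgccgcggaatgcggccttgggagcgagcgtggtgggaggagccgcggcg

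The third start of *Prkcz* lies within exons of longer transcripts and holds the RUNX core at positions -204 and -120, counted to -1 for the base before the start. The 30 bases around each match are given with the core in capitals.

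*Prkcz*, the third start, chr4:155344936-155344965, minus strand: tggatcaatgggACCACAacgatgaggtcc

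*Prkcz*, the third start, chr4:155344852-155344881, minus strand: gcatccctggctTGTGGTccaacaggggcg

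Of 9 promoter entries for 6 members, 1 held the RUNX core and 1 the PU.1 core, the latter in *Prkcq* at position -95. All 250 bases of that *Prkcq* entry lie in annotated exons of the gene. The first start of *Prkcz* is in none of its GENCODE M21 transcripts. Among all 32851 entries of the same length, 14% held the RUNX core, 1.27% held it at least 2 times, and 23.3% held the PU.1 core. These are matches of letters, and binding was not measured here.

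*Spi1* was checked first, because the labels rest on it. It was at 124 ± 40.0 CPM in WT LSKs and at 3.02 ± 1.42 CPM in URE LSKs, and at 140 ± 40.5 CPM in WT GMPs against 21.3 ± 5.96 CPM in URE GMPs. In LSKs its log2 fold change was -5.39 (SE 0.47, adjusted p = 0.000266, edgeR's quasi-likelihood test) and in GMPs -2.73 (SE 0.30, adjusted p = 0.00095), with no overlap between genotypes in either. The sorted types carried their markers, since the summed GMP list (*Mpo*, *Elane*, *Prtn3*, *Ctsg* and *Fcgr3*, a gene of the gate) was at no more than 1598 CPM in any LSK library and at no less than 54914 CPM in any GMP library. Within each group, replicates 1 and 4 were the most alike pair (chi-square per degree of freedom 32.4 to 64.8, against 81.6 to 293 for the other pairs). No label gives a reason for this, and values for replicates 1 and 4 and for 2 and 3 are given where they were furthest apart.

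*Prkcz*, the atypical zeta isozyme, was near 0 in WT cells and well detected in URE LSKs. In WT LSKs its level was 0.32, 1.58, 0.351 and 0.241 CPM in replicates 1 to 4, which is 6 to 47 counts. In URE LSKs it was 73.5, 39.5, 32.0 and 52.5 CPM, or 760 to 1887 counts. Every URE library stood above every WT library, and the lowest URE level was many times the highest WT level. The log2 fold change was 6.26 (SE 0.65), or 76.7-fold, and it was 7.74 in replicates 1 and 4 and 5.18 in replicates 2 and 3. Replicate 2 held most of the WT counts, and without it the log2 fold change was 7.29. These LSK values chose the family and carry no test.

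The GMP libraries, which were not used in that choice, showed *Prkcz* at a lower level and in the same direction. WT GMPs had 0.39, 0.54, 0 and 0.726 CPM, or 9, 13, 0 and 14 counts, and the library at 0 allows up to 0.147 CPM (3 counts). URE GMPs had 8.87, 1.57, 8.66 and 6.75 CPM, or 184, 30, 169 and 120 counts. The genotypes did not overlap, although URE replicate 2 stood well below the other three. *Prkcz* rose by 3.96 (SE 0.84) on the log2 scale, or 15.6-fold, in URE GMPs (adjusted p = 0.0184), and the exact two-sided permutation test gave p = 0.0286, the smallest that 4 against 4 allows. It passed the filter on low counts through the URE libraries alone, and its fold rests on at most 14 counts in a WT library. Same-numbered LSK and GMP libraries also deviated together (r from 0.38 to 0.52 in URE and from 0.42 to 0.71 in WT mice). The test is therefore not fully independent of the LSK values that chose the family. With no filter on low counts the log2 fold change was 3.95 (adjusted p = 0.00647). The adjusted p was 0.0508 without URE replicate 4, 0.0545 without WT replicate 2, and 0.0538 with the level of Y-linked genes as a covariate, with log2 fold changes of 3.91 to 4.11.

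Across the 4 groups the order of *Prkcz* was URE LSK (49.4 ± 18.2 CPM), URE GMP (6.46 ± 3.40), WT LSK (0.622 ± 0.637) and WT GMP (0.414 ± 0.308). Neighbours overlapped in range except for URE LSKs above URE GMPs. The place of WT LSKs before WT GMPs rested on WT LSK replicate 2, and by medians (0.336 and 0.465 CPM) it was the reverse. From URE LSKs to URE GMPs the log2 fold change was -2.93 (SE 0.69), and from WT LSKs to WT GMPs it was -0.60 (SE 0.77), the latter between levels of at most 47 counts. The direction in WT mice rested on the same library, without which the value was 0.43, and it was 0.94 in replicates 1 and 4 and -1.76 in replicates 2 and 3. The genotype effect in GMPs minus that in LSKs was -2.34 (SE 1.02) on the log2 scale, -3.95 in replicates 1 and 4 and -1.01 in replicates 2 and 3. All of these values involve the LSK libraries and carry no test.

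Marker lists of other cell types also differed between the genotypes. The summed level of 5 neutrophil genes (*Ltf*, *Camp*, *Ngp*, *Ly6g*, *Mmp8*) was 156 to 261 CPM in URE LSKs against 21.8 to 104 CPM in WT LSKs, and that of 5 mast cell and basophil genes (*Cpa3*, *Mcpt8*, *Prss34*, *Ms4a2*, *Hdc*) was 88.5 to 157 against 29.3 to 48.5 CPM. In that list the means of *Cpa3* (89.0 against 23.3 CPM) and *Mcpt8* (17.3 against 3.93 CPM) were higher in URE LSKs, and those of *Prss34*, *Ms4a2* and *Hdc* were lower. Of the neutrophil genes, *Ngp* (140 against 26.5 CPM) and *Camp* (60.7 against 18.2 CPM) made up most of the sum. Of 5 monocyte genes the sum was 9.94 to 17.7 against 48.2 to 99.3 CPM. Of 5 megakaryocyte genes (*Pf4*, *Itga2b*, *Gp9*, *Gp1ba*, *Vwf*) the sums overlapped, at 67.0 to 459 against 68.2 to 90.9 CPM. The median of *Itga2b* (133 against 35.8 CPM) was higher in URE LSKs, and those of *Pf4* (5.25 against 13.5 CPM) and *Gp9* (3.58 against 8.73 CPM) were lower. In GMPs the neutrophil sum was 165 to 717 CPM in URE against 35.5 to 78.0 CPM in WT libraries, and the monocyte sum 45.8 to 234 against 492 to 830 CPM. *Mmp8*, of the neutrophil list, went the other way in GMPs (0.853 CPM in URE against 6.90 CPM in WT, log2 fold change -3.04, adjusted p = 0.013). The sum of the eosinophil genes *Epx* and *Prg2* was 62.2 to 281 against 537 to 1144 CPM. Every gene of these 5 lists was detected in every group. Of 3 dendritic cell genes the sum was 157 to 355 CPM in URE against 360 to 1208 CPM in WT LSKs, and 10.4 to 29.1 against 79.5 to 233 CPM in GMPs, with *Siglech* at 0 in URE LSKs and *Cd209a* at 0 in URE GMPs. Nearly all of this sum was *Flt3* (752 CPM in WT and 241 CPM in URE LSKs), which multipotent progenitors express as well. The B cell sum, 58.1 to 82.6 CPM in WT LSKs, was 24.8 to 36.3 CPM in URE LSKs. Markers of the sorted types moved as well. The GMP list summed to 73668 to 160090 CPM in URE GMPs against 54914 to 70387 CPM in WT GMPs. Of the stem and progenitor markers, *Cd34* was called lower in URE LSKs (log2 fold change -1.31) and URE GMPs (-1.80). *Kit*, *Ly6a*, *Hlf*, *Mecom* and *Meis1* were not called between genotypes. The part of these lists in the *Prkcz* level of either cell type was not tested, and in bulk samples more cells of a type and more RNA per cell cannot be told apart.

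**Figure D1:**
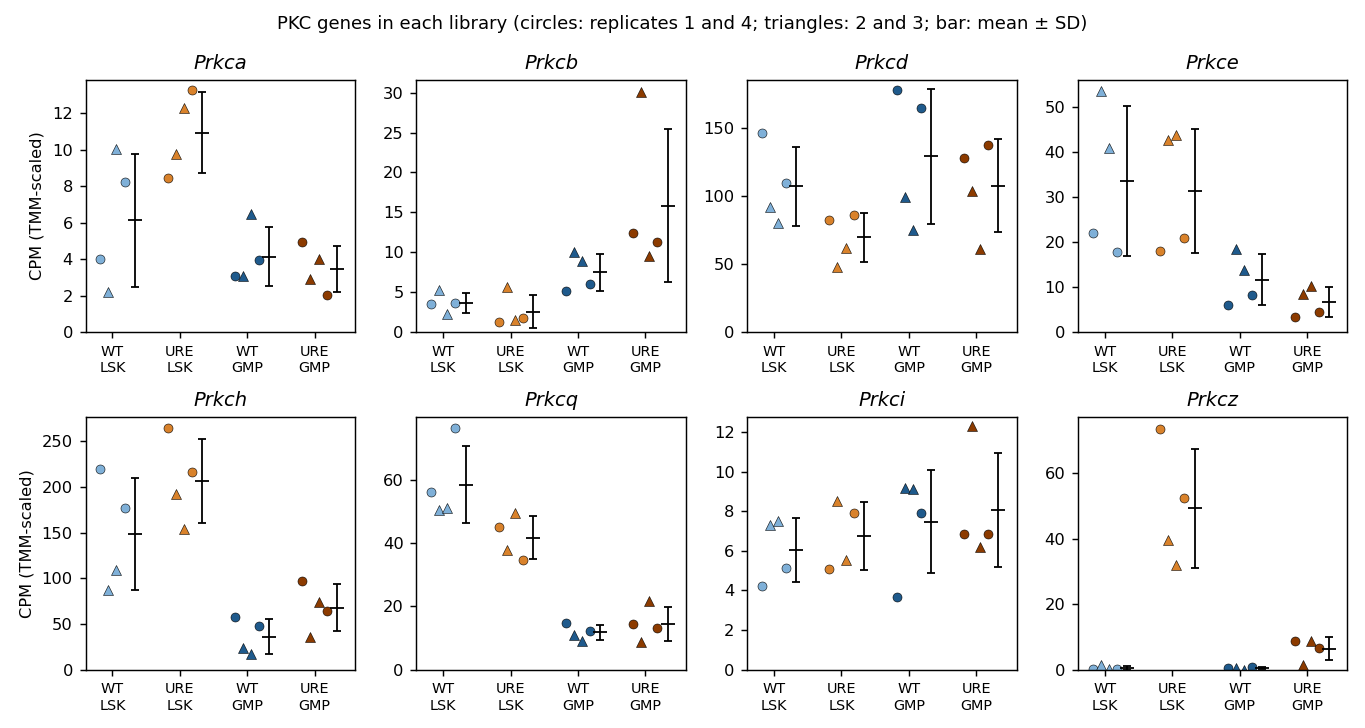
Level of the 8 PKC genes in each library, in TMM-scaled CPM on axes from 0, by group. Circles are replicates 1 and 4, triangles replicates 2 and 3, and the bar beside them is the mean ± SD of 4 libraries. *Prkcz* lies between 32.0 and 73.5 CPM in URE LSKs and at no more than 1.58 CPM in any WT library, whereas the means of *Prkce*, *Prkch* and *Prkcq* are lower in GMPs than in LSKs of the same genotype.

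*Prkci*, the atypical iota isozyme, had overlapping ranges in all 4 groups. WT LSKs had 4.23, 7.31, 7.53 and 5.15 CPM and URE LSKs 5.06, 8.51, 5.55 and 7.89 CPM. WT GMPs had 3.68, 9.18, 9.13 and 7.93 CPM and URE GMPs 6.84, 12.3, 6.20 and 6.87 CPM. Group means ran from 6.05 ± 1.62 CPM in WT LSKs to 8.06 ± 2.86 CPM in URE GMPs. In GMPs the log2 fold change was 0.09 (SE 0.35, adjusted p = 0.931), and in LSKs it was 0.13 (SE 0.31). The ratio of *Prkcz* to *Prkci*, each per kb of its longest coding transcript, was 0.0538 to 0.249 in WT LSKs and 5.35 to 16.7 in URE LSKs. It was 0 to 0.122 in WT GMPs and 0.147 to 1.61 in URE GMPs, so that zeta exceeded iota in every URE LSK library, in 3 of 4 URE GMP libraries and in no WT library. Per kb of all exons it did so in 2 of 4 URE GMP libraries, and the other counts were as before.

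Of the classical isozymes, *Prkca* had its highest mean in URE LSKs. Its level was 4.0, 2.21, 10.1 and 8.25 CPM in WT LSKs and 8.45, 9.80, 12.3 and 13.3 CPM in URE LSKs. WT GMPs had 3.07, 3.07, 6.50 and 3.94 CPM and URE GMPs 4.96, 2.92, 3.99 and 2.03 CPM. The WT LSK libraries spread over more than 4-fold and overlapped with each of the other groups. The log2 fold change in LSKs was 0.80 (SE 0.45), and in each replicate number the URE library was the higher. In GMPs it was -0.26 (SE 0.39, adjusted p = 0.794).

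*Prkcb*, the beta isozyme, had its highest mean in URE GMPs. WT LSKs had 3.52, 5.26, 2.30 and 3.70 CPM, and URE LSKs 1.32, 5.69, 1.60 and 1.75 CPM. WT GMPs had 5.15, 10.0, 8.94 and 6.07 CPM, and URE GMPs 12.5, 30.1, 9.53 and 11.3 CPM. Replicate 2 was the highest library of each group, and the GMP genotypes overlapped by 1 WT library. The GMP log2 fold change was 1.05 (SE 0.40, adjusted p = 0.168), and a block for the replicate number gave 0.96 (adjusted p = 0.0425), so that the block changed the call. In LSKs it was -0.53 (SE 0.52), at -1.26 in replicates 1 and 4 and -0.06 in replicates 2 and 3. The summed level of 4 B cell genes (*Cd79a*, *Cd79b*, *Ebf1*, *Pax5*) was 61.3 to 89.1 CPM in WT GMPs and 8.19 to 23.6 CPM in URE GMPs, with *Pax5* at 0 in both. Nearly all of it was *Cd79b* (75.7 ± 13.1 CPM in WT and 15.3 ± 6.91 CPM in URE GMPs), and its part in the *Prkcb* level was not tested.

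Among the nPKC isozymes, *Prkch* and *Prkcd* had the highest levels per kb of transcript, given further on. *Prkch*, the eta isozyme, was at 220, 86.8, 110 and 177 CPM in WT LSKs and at 264, 193, 154 and 216 CPM in URE LSKs. It was at 57.2, 23.7, 17.0 and 47.4 CPM in WT GMPs and at 97.5, 35.4, 74.2 and 64.7 CPM in URE GMPs. The URE library exceeded the WT library of the same number in all 4 pairs of LSKs and in all 4 pairs of GMPs, though the ranges overlapped. The log2 fold change was 0.44 (SE 0.30) in LSKs and 0.91 (SE 0.43, adjusted p = 0.279) in GMPs, where the block gave 0.96 (adjusted p = 0.0454) and so changed the call. In GMPs it was 0.62 in replicates 1 and 4 and 1.42 in replicates 2 and 3.

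*Prkcd*, the delta isozyme, was at 146, 92.3, 80.0 and 110 CPM in WT LSKs and at 82.5, 47.6, 62.1 and 86.4 CPM in URE LSKs. In WT GMPs it was at 177, 99.2, 75.1 and 165 CPM and in URE GMPs at 128, 104, 60.9 and 138 CPM. The URE library was the lower in all 4 LSK pairs and in 3 of 4 GMP pairs, and the ranges overlapped in both. The log2 fold change was -0.65 (SE 0.25) in LSKs and -0.27 (SE 0.32, adjusted p = 0.734) in GMPs. On the mean log2 scale, replicates 1 and 4 exceeded replicates 2 and 3 by 0.73 for *Prkcd* and by 0.87 for *Prkch*, averaged over the groups.

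*Prkcq*, the theta isozyme of T cell signalling, was at 56.0, 50.5, 50.9 and 76.4 CPM in WT LSKs and at 45.2, 37.8, 49.6 and 34.5 CPM in URE LSKs. WT GMPs had 14.7, 11.0, 9.18 and 12.3 CPM and URE GMPs 14.5, 8.61, 21.6 and 13.1 CPM. The LSK genotypes did not overlap, as was so for *Prkcz* and for none of the other 6 members, and the log2 fold change was -0.51 (SE 0.20), at -0.76 in replicates 1 and 4 and -0.25 in replicates 2 and 3. Of all 15154 genes tested in LSKs, 12.6% had genotypes that did not overlap. In GMPs the log2 fold change was 0.29 (SE 0.31, adjusted p = 0.689), and without URE GMP replicate 3 it was -0.005. The summed level of 6 T cell genes (*Cd3d*, *Cd3e*, *Cd3g*, *Cd4*, *Cd8a*, *Trac*) was 3.24 to 7.57 CPM in WT LSKs and 0.501 to 1.89 CPM in URE LSKs, with *Cd3d*, *Cd3e* and *Cd8a* at 0 in the latter. Most of the WT sum was *Cd4*, and the part of these genes in the *Prkcq* level was not tested.

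*Prkce*, the epsilon isozyme, was the lower in URE GMPs in all 4 pairs. WT LSKs had 22.1, 53.6, 40.9 and 17.8 CPM, and URE LSKs 18, 42.7, 43.9 and 21.1 CPM. WT GMPs had 6.10, 18.6, 13.9 and 8.40 CPM, and URE GMPs 3.37, 8.51, 10.4 and 4.45 CPM. In every group replicates 2 and 3 were above replicates 1 and 4, by 1.15 to 1.26 on the log2 scale, a gap larger than that between the genotypes. The GMP log2 fold change was -0.82 (SE 0.46, adjusted p = 0.373), and with the block, which takes up that gap, it was -0.84 (adjusted p = 0.0301), so that the call changed. Without the block it was -1.14 when URE GMP replicate 3 was left out and -0.53 when WT GMP replicate 2 was left out. In LSKs the log2 fold change was -0.13 (SE 0.42).

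Of the 7 members other than *Prkcz*, 0 were called in URE GMPs by edgeR or by DESeq2 and 1 (*Prkcb*) had an unadjusted p under 0.05, where a call needs an adjusted p below 0.05 together with a change of more than 1.5-fold. Of all 13829 genes tested in GMPs, 4.67% were called higher and 3.63% lower, and 14.8% had genotypes that did not overlap, as 0 of these 7 members did. With the block 2 of the 7 were called higher (*Prkcb*, *Prkch*) and 1 lower (*Prkce*), beside 9.52% and 6.82% of all genes under the same fit. The median log2 fold change of the 7 was 0.09, against 0.0052 over all genes tested. *Prkcz*, called in both fits, is left out of these counts because it entered the test through its URE libraries.

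**Figure D2:**
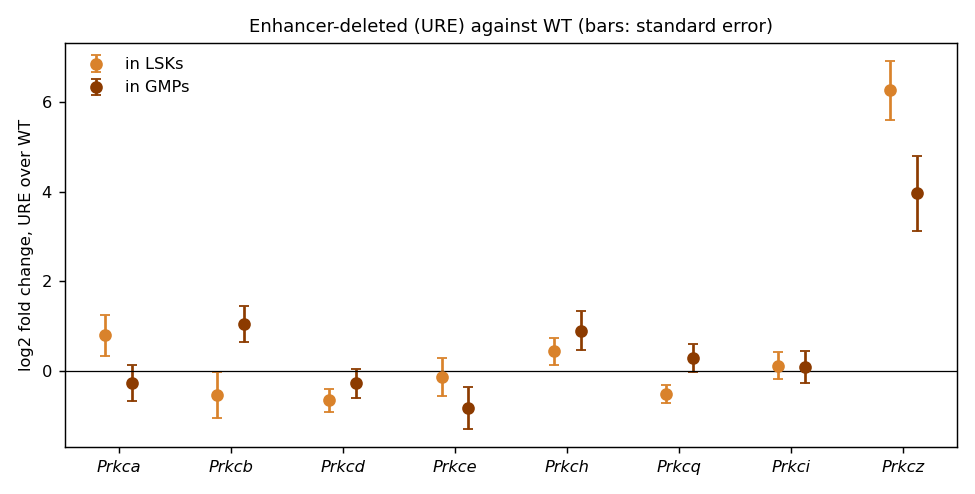
Log2 fold change of URE over WT for each PKC gene in LSKs and in GMPs, with bars of 1 standard error. *Prkcz* stands at 6.26 in LSKs and 3.96 in GMPs, and the other 7 genes lie between -0.82 and 1.05. The LSK values are a description, since they chose the family.

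The comparison of GMPs with LSKs asks how the family differs as progenitors commit to the neutrophil and monocyte lineages. In WT mice 3 of the 7 members other than *Prkcz* were called lower in GMPs and 0 higher, all 3 of them nPKC isozymes. *Prkcq* fell by 2.31 (SE 0.26) on the log2 scale (adjusted p = 1.92e-05), *Prkch* fell by 2.03 (SE 0.40, adjusted p = 0.00155) and *Prkce* fell by 1.52 (SE 0.47, adjusted p = 0.0246). The WT libraries of LSKs and GMPs did not overlap for *Prkcq* and *Prkch*, 2 of the 7, as for 30.6% of all genes, and overlapped for *Prkce*. The call of *Prkce* was lost without WT LSK replicate 2 (log2 fold change -1.20), WT LSK replicate 3 (-1.41), WT GMP replicate 1 (-1.30) or WT GMP replicate 4 (-1.38), with adjusted p of 0.0542 to 0.0846. *Prkcd*, the remaining nPKC isozyme, had a log2 fold change of 0.27 (SE 0.31, adjusted p = 0.573) and *Prkci* of 0.30 (SE 0.33, adjusted p = 0.547), and both turned negative (-0.07 and -0.05) when library totals replaced the TMM factors. *Prkca* had -0.56 (SE 0.43, adjusted p = 0.36) and *Prkcb* 1.03 (SE 0.48, adjusted p = 0.127), and with the block *Prkcb* was called at 1.05 (adjusted p = 0.00842). Of all 15935 genes tested, 11.3% were called higher and 15.5% lower in WT GMPs, and 14.4% and 22.3% with the block.

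In URE mice 4 of the 7 members were called lower in GMPs and 1 higher. *Prkce* fell by 2.23 (SE 0.48, adjusted p = 0.00294), *Prkca* fell by 1.65 (SE 0.44, adjusted p = 0.0103), *Prkch* fell by 1.61 (SE 0.40, adjusted p = 0.0072) and *Prkcq* fell by 1.53 (SE 0.26, adjusted p = 0.000417). *Prkcb* rose by 2.60 (SE 0.50, adjusted p = 0.00131), or 6.08-fold. These 5 of the 7 did not overlap between URE LSKs and URE GMPs, as was so for 25.4% of all genes. *Prkcd* had a log2 fold change of 0.63 (SE 0.31, adjusted p = 0.157), called with the block at 0.60 (adjusted p = 0.00837), and *Prkci* had 0.25 (SE 0.33, adjusted p = 0.624), or -0.11 with library totals. Of all genes tested, 10.6% were called higher and 14.2% lower in URE GMPs, and 14.2% and 19.7% with the block. The median over the 7 members was -1.53, against -0.08 over all genes, and in WT mice these medians were -0.56 and -0.10.

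*Prkca* and *Prkcb* were called between the cell types in URE mice and not in WT mice, although *Prkcb* was called in WT mice as well with the block (1.05, adjusted p = 0.00842). The difference of the genotype effects, GMPs minus LSKs, was -1.09 (SE 0.60) for *Prkca*, 1.58 (SE 0.68) for *Prkcb* (2.31 in replicates 1 and 4, 1.08 in replicates 2 and 3) and 0.78 (SE 0.36) for *Prkcq*. It was -0.72 (SE 0.65) for *Prkce*, 0.43 (SE 0.55) for *Prkch*, 0.36 (SE 0.44) for *Prkcd* and -0.05 (SE 0.47) for *Prkci*. These differences hold the LSK contrast that chose the family and carry no test, so the genotypes are not shown to differ in how the members change from LSK to GMP.

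**Figure D3:**
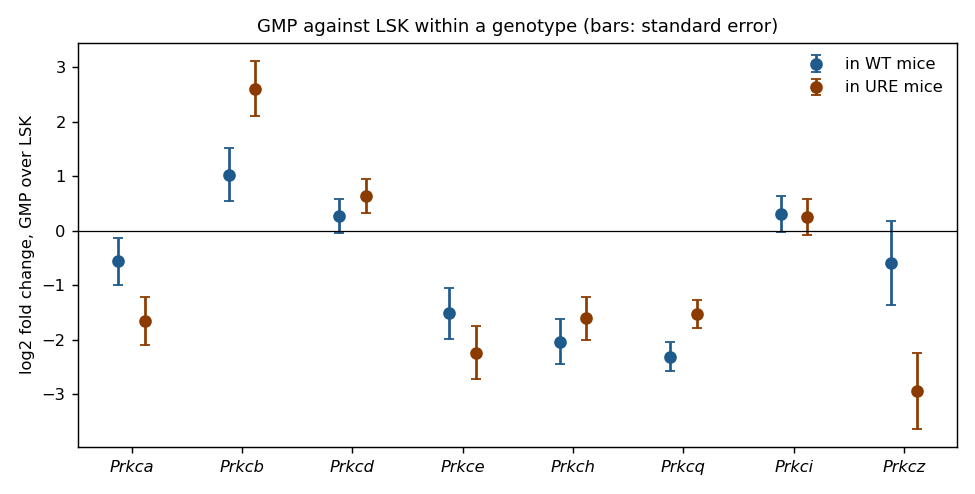
Log2 fold change of GMPs over LSKs for each PKC gene in WT and in URE mice, with bars of 1 standard error. *Prkce*, *Prkch* and *Prkcq* lie below -1.5 in both genotypes, while *Prkcb* is at 1.03 in WT and 2.60 in URE mice. *Prkcz* is shown as a description.

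To set the members side by side, levels were divided by the length of the longest coding transcript. By this measure the summed family level was 105 ± 25.6 CPM per kb in WT LSKs, 115 ± 19.2 in URE LSKs, 65.5 ± 21.4 in WT GMPs and 71.2 ± 12.9 in URE GMPs. The nPKC class made up 96.5% ± 1.31 of the sum in WT LSKs, 86.5% ± 1.49 in URE LSKs, 91.5% ± 4.81 in WT GMPs and 86.7% ± 5.6 in URE GMPs. The atypical class made up 1.51% ± 0.775 in WT LSKs and 11.5% ± 1.83 in URE LSKs, and 2.97% ± 1.63 in WT GMPs and 4.73% ± 0.901 in URE GMPs. Per kb of all exons the atypical share was 2.36% in WT LSKs, 14.6% in URE LSKs, 4.68% in WT GMPs and 6.97% in URE GMPs. The classical class made up 2.01% ± 0.562, 1.99% ± 0.819, 5.50% ± 3.21 and 8.57% ± 5.47 of the sum per kb of longest coding transcript, in the same order. The wider atypical share of URE LSKs is largely *Prkcz*, and so is part of the choice of the family.

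The leading isozymes differed between the cell types. In WT LSKs *Prkch* held 38.8% ± 7.35 of the family sum, *Prkcd* 35.9% ± 2.88 and *Prkcq* 16% ± 3.02, and *Prkcz* was last with 0.168% ± 0.197. In URE LSKs *Prkch* held 50.3% ± 3.97, *Prkcd* 21.1% ± 3.71 and *Prkcq* 10.4% ± 2.76, and *Prkcz* 10.25% ± 2.06, the third highest mean level per kb. In WT GMPs *Prkcd* alone held 68.0% ± 4.58 and *Prkch* 14.8% ± 3.38. In URE GMPs *Prkcd* held 52.2% ± 10.6, *Prkch* 26.9% ± 9.33, *Prkcb* 7.98% ± 5.49 and *Prkcz* 2.24% ± 1.28. In either genotype *Prkch* and *Prkcd* thus made up most of the family in LSKs, and *Prkcd* had the largest share in GMPs. With the length of all exons instead, *Prkch* and *Prkcd* were 35.2% and 35.3% in WT LSKs, so that their order by mean share turned, and it held in the other groups.

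**Figure D4:**
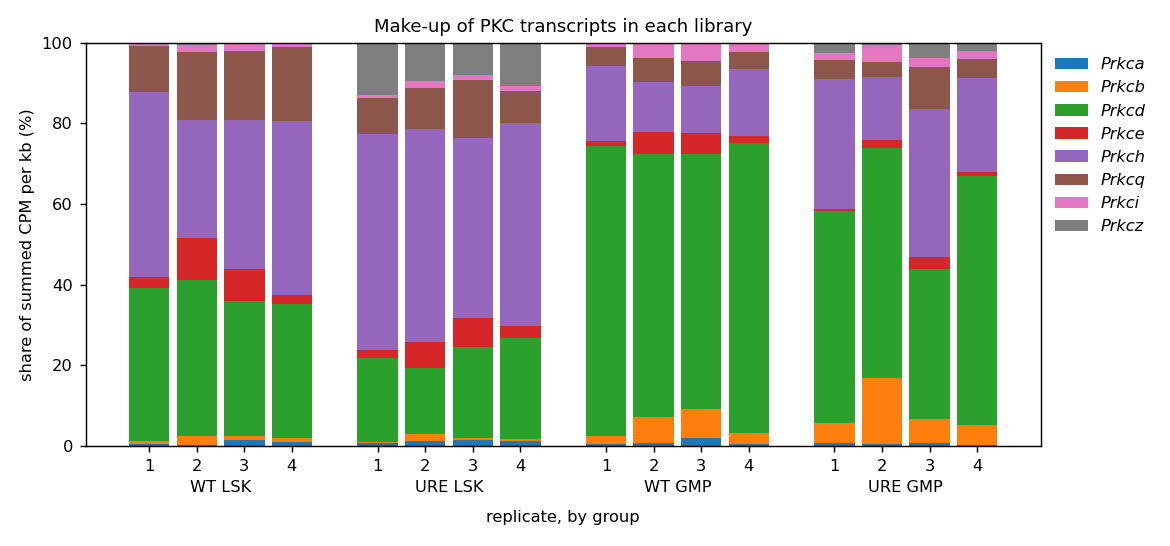
Share of each PKC gene in the summed CPM per kb of longest coding transcript, as stacked bars in percent, for the 16 libraries by group and replicate. *Prkcd* holds the largest block in every GMP library, *Prkcd* in WT LSK replicate 2 and *Prkch* in the other LSK libraries, and a block of *Prkcz* of 8.07% to 12.9% is present in the URE LSK libraries.

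Patterns over the 16 libraries were compared with that of *Prkcz* by root mean square difference of centred log2 CPM. The search took in only the 9071 genes whose log2 CPM averaged 3 or more. *Prkcz* itself averaged less, and genes as low as it were not searched. Among the genes searched, the nearest were *Sulf2* (1.36), *Rbm45* (1.59) and *Myo6* (1.61). *Sulf2*, a sulfatase of heparan sulfate, was at 3.35 ± 0.885 CPM in WT LSKs, 76.3 ± 28.1 in URE LSKs, 2.91 ± 0.524 in WT GMPs and 11.9 ± 2.58 in URE GMPs. *Rbm45*, an RNA-binding protein, kept a like level in URE LSKs (51.0 ± 11.9 CPM) and URE GMPs (51.8 ± 4.89 CPM), against 2.13 ± 0.711 and 2.85 ± 1.37 CPM in WT. *Myo6*, a myosin motor, was at 65.2 ± 20.9 CPM in URE LSKs and 20.8 ± 7.60 CPM in URE GMPs, against 9.86 ± 2.02 and 2.46 ± 0.547 CPM in WT. All 3 were selected on these libraries, so that their levels are a description.

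Genes around PKC were read in 7 lists of related kinases, makers and removers of diacylglycerol, other diacylglycerol receptors, partners, scaffolds and substrates. Over all genes tested in LSKs, 2.38% were called higher and 3.76% lower, and 3.83% and 5.62% with the block. In GMPs these shares were 4.67% and 3.63%, and 9.52% and 6.82% with the block. Of the PKC-related kinases (*Prkd1*, *Prkd2*, *Prkd3*, *Pkn2* and *Pkn3*), 4 of 5 were tested and 0 were called in any of the 4 comparisons, against 1 in LSKs, 2 in GMPs, 2 from LSK to GMP in WT and 2 in URE mice with the block. The nearest to a call in LSKs was *Pkn3*, whose log2 fold change of 2.40 (SE 0.66, adjusted p = 0.0712) was called with the block at 2.40 (adjusted p = 0.0016). With the block *Pkn3* (1.59, adjusted p = 0.00689) and *Prkd3* (0.92, adjusted p = 0.00236) were also called higher in GMPs. *Prkd2* had log2 fold changes of -1.96 (adjusted p = 0.111) and -2.05 (adjusted p = 0.101) from LSK to GMP in WT and URE mice, both called with the block at -2.21 and -2.09. *Pkn3* and *Prkd2* were higher in replicates 1 and 4 than in 2 and 3 by 2.13 and 2.28 on the log2 scale.

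Among enzymes of diacylglycerol, *Dgkg* was called higher in URE cells of either type. This kinase, which turns diacylglycerol into phosphatidic acid, was at 30.7 ± 6.45 CPM in WT LSKs and 69.5 ± 20.6 in URE LSKs, and at 22.8 ± 7.55 in WT GMPs and 55.0 ± 14.2 in URE GMPs. It rose by 1.15 (SE 0.25, adjusted p = 0.0271) in LSKs and by 1.26 (SE 0.29, adjusted p = 0.0278) in GMPs. Of 8 diacylglycerol kinases tested, 2 were called higher in LSKs (*Dgkg* and *Dgki*) and 2 in GMPs (*Dgkg* and *Dgkh*), with 0 lower. *Dgki* held 4 to 8 counts in WT LSKs and 53 to 116 in URE LSKs, so it entered that test through its URE libraries. The list's median log2 fold change was -0.10 in LSKs and 0.79 in GMPs, and with the block 3 were called higher in GMPs (*Dgkq* as well). Of the phospholipases C, 0 of 8 were called in LSKs, whereas in GMPs *Plcb1* was higher and *Plcd3* lower among 7 tested. *Plcd3* held 23 to 78 counts in WT GMPs and only 4 to 13 in URE GMPs, so it entered that test through its WT libraries. With the block *Plcb2* and *Plcd3* were called lower in LSKs and *Plcb2* higher in GMPs. *Plcd3* entered the LSK test in the same way, with 25 to 114 counts in WT LSKs and 1 to 14 in URE LSKs. *Plcg1*, the phospholipase downstream of antigen and growth factor receptors, fell from LSK to GMP by 1.04 (SE 0.23, adjusted p = 0.00359) in WT and by 1.66 (SE 0.24, adjusted p = 0.000106) in URE mice. *Dgki*, *Dgkh*, *Dgkq*, *Plcb1*, *Plcb2* and *Plcd3* were named after their values were seen, for these counts only.

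Of the other diacylglycerol receptors, 0 of 7 were called in LSKs (1 with the block, *Rasgrp2*) and 1 of 5 in GMPs (*Chn1*, higher). *Chn1* held 5 to 7 counts in WT GMPs and 28 to 47 in URE GMPs, so it entered the test through its URE libraries. *Rasgrp2*, an exchange factor for Rap1, rose from LSK to GMP by 1.24 (SE 0.27, adjusted p = 0.00268) in WT and by 1.15 (SE 0.27, adjusted p = 0.00458) in URE mice. Of 9 tested between the cell types, 1 was called higher and 1 lower in WT mice, and 2 higher and 1 lower in URE mice, the lower one being *Rasgrp3* in both (-3.28, adjusted p = 0.00233, and -6.68, adjusted p = 4.17e-05). *Rasgrp3* held 4 to 15 counts in WT GMPs and 0 to 5 in URE GMPs, so it passed the filter through its LSK libraries. Its value in URE mice, over GMPs near 0, gives a direction and no exact size. *Chn1* and *Rasgrp3* were named after their values were seen. Of the polarity partners of atypical PKC, 0 of 9 were called in LSKs, and the list's median log2 fold change there was 0.03. In GMPs 1 of 9 was called, *Sqstm1*, which encodes p62 and was at 135 ± 33.3 CPM in WT and 265 ± 37.3 CPM in URE cells (log2 fold change 0.97, SE 0.19, adjusted p = 0.0139), and with the block *Mark2* as well. From LSK to GMP, 4 of these 9 were called lower in WT mice (6 with the block), among them *Sqstm1* (-0.72, adjusted p = 0.029), and 2 lower and 1 higher in URE mice. Of all genes 15.5% were called lower in WT GMPs (22.3% with the block), and 14.2% lower and 10.6% higher in URE GMPs. Of 11 priming kinases, phosphatases and scaffolds, 0 were called in LSKs and 0 in GMPs, where the block called *Phlpp2* lower.

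Among substrates, *Marcks* was called higher in URE cells of either type. MARCKS, a membrane-bound actin regulator, is the best known PKC substrate. Its gene was at 17.9 ± 2.53 CPM in WT LSKs and 52.4 ± 14.4 in URE LSKs, and at 19.3 ± 1.07 in WT GMPs and 78.3 ± 12.3 in URE GMPs. It rose by 1.52 (SE 0.25, adjusted p = 0.0065) in LSKs and by 2.01 (SE 0.17, adjusted p = 0.000384) in GMPs. *Marcksl1*, its paralog, had log2 fold changes of -0.59 (adjusted p = 0.725) and 0.22 (adjusted p = 0.847). *Bcl10* and *Malt1* were not called between genotypes in either cell type. Of this list of 11, 1 was called higher and 0 lower in LSKs (1 lower with the block, *Card9*), and 1 of 10 tested was called higher and 0 lower in GMPs.

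**Figure D5:**
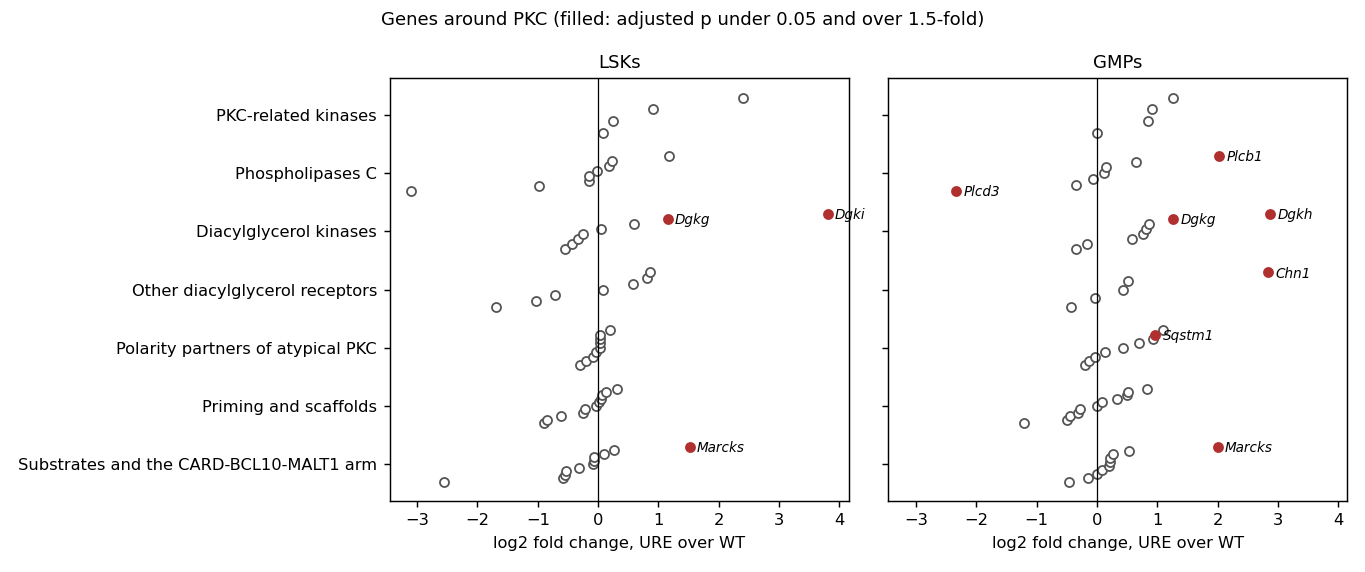
Log2 fold change of URE over WT for the tested genes of 7 lists around PKC, in LSKs (left) and GMPs (right), 1 circle per gene. Filled circles carry the gene's symbol and passed an adjusted p of 0.05 and a 1.5-fold change without the block. *Marcks* and *Dgkg* are filled in both panels, and no polarity partner is filled in LSKs.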

How the data were processed

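The data are 16 RNA-seq libraries of sorted LSKs and GMPs from URE and WT mice. The authors quantified paired-end reads of unstranded low-input libraries, which started from at most 10 ng of RNA and carry no molecular identifiers, with salmon on GRCm38 and summed the transcripts to genes with tximport. They deposited expected counts per gene as whole numbers, so that rounding changed nothing. The salmon version and the annotation release of these libraries are not given in the sources used here. Of the 54347 gene identifiers, 54094 are in GENCODE M21, which gave coordinates and lengths.

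Total counts per library were 20028302 to 29128858, and limits from counts cover counting error only. Groups and replicate numbers came from the labels. Genotypes were compared within each cell type, and GMPs with LSKs in a fit of all 16 libraries, with edgeR 4.0.16 (R 4.3.3): TMM factors, filterByExpr (minimum count 10), the quasi-likelihood test and Benjamini-Hochberg adjustment over all genes tested. Shown CPM use TMM factors of all 16 libraries, and log2 CPM a prior count of 2. The SE of a log2 fold change is its size divided by the root of its F statistic. Single genes were also compared by an exact permutation test, 4 against 4. Without the replicate block, p-values measure the spread between the libraries of a group, where differences between mice and between replicate numbers are not separated. The fit of all 16 libraries also treats same-numbered LSK and GMP libraries as independent.

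The members and lists were chosen with earlier results of these data known. Named were the members, *Spi1*, marker genes, up to 4 called genes per list and comparison with the largest change and a mean of at least 3 log2 CPM, and the 3 genes nearest to *Prkcz* among genes of at least that mean. From LSK to GMP the rule also gave genes not described above. In WT mice these were *Dgka* (log2 fold change -0.93), *Pick1* (-0.81), *Rack1* (0.81) and *Marcksl1* (-1.65). In URE mice they were *Mark2* (1.10) and *Malt1* (-0.81). Further list genes are named outside this rule, such as *Phlpp2*, called between genotypes only with the block, and *Bcl10*, not called.

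Same-numbered libraries deviated together in every pair (r from 0.24 to 0.71 over the 4 comparisons). In either comparison of genotypes 3 of 4 URE libraries correlated most with the WT library of their own number. Between cell types 4 of 4 GMP libraries did so with the LSK library of their number. The numbers were taken as pairing the samples, and a replicate block was fitted as an alternative. Other alternatives were DESeq2 1.42.0, other size factors and filters, the level of Y-linked genes, replicates 1 and 4 or 2 and 3 alone, and leaving out each library. The same alternatives for the difference between genotype effects were added after seeing the data. The procedure was tested on simulated libraries drawn independently, for the comparisons other than that of genotypes in LSKs. They held no replicate effect, so they do not check the procedure where same-numbered libraries deviate together. Motifs were searched in the 250 bases before RefSeq starts, which were found for 6 members, and plots were drawn with matplotlib 3.10.9. Some genes of the lists are not reported here and were left out of the counts and sums. Other experiments of the study were not analysed here.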

Additional observations from a re-analysis of the deposited data

Results flagged for a closer look

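Within the groups of 4 libraries, 40 were checked for a library that stands apart by Dixon's criterion, and 4 were flagged. Chance alone flags about 1 in 20. *Prkcb* in URE GMP replicate 2 was at 30.1 CPM (577 counts) against 9.53 to 12.5 CPM in the other libraries, and in URE LSK replicate 2 it was at 5.69 CPM (172 counts) against 1.32 to 1.75 CPM. *Prkci* in URE GMP replicate 2 was at 12.3 CPM (236 counts) against 6.20 to 6.87 CPM. *Prkcz* in WT LSK replicate 2 was at 1.58 CPM (47 counts) against 0.241 to 0.351 CPM. All 4 flags fall on replicate 2, and the cause was not tested. Without URE GMP replicate 2 the GMP log2 fold change of *Prkcb* was 0.53, and without URE LSK replicate 2 its LSK value was -1.25 in place of -0.53.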

How the results depend on the processing

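In GMPs, URE against WT, the count of genes called was 1148, and it was 1999 with DESeq2, 2260 with the replicate block, 630 with Y-linked genes as a covariate, 108 in replicates 2 and 3 alone, and 715 (without URE GMP replicate 4) to 1176 when each library was left out. The members called there were 1, *Prkcz*, which entered the test through its URE libraries. There were 4 under the block, *Prkcz* among them, beside 9.52% of all genes called higher and 6.82% lower (4.67% and 3.63% without it). There were 0 with the Y-linked covariate, 0 in replicates 2 and 3, and 0 to 1 when a library was left out. *Prkcz* in GMPs kept its direction at every setting, with log2 fold changes of 3.91 (adjusted p = 0.0538) with the Y-linked covariate and 4.19 (adjusted p = 0.292) in replicates 2 and 3, 3.54 to 4.33 when a library was left out (adjusted p from 0.0106 to 0.0545), and an adjusted p as low as 2.13e-06 with DESeq2. In LSKs *Prkcz* was at 7.74 in replicates 1 and 4, 5.18 in replicates 2 and 3, and 6.0 to 7.29 when a library was left out. Its difference between genotype effects was -3.95 and -1.01 in these replicates. From LSK to GMP, replicates 2 and 3 gave 1397 genes called in WT mice (4264 with all), and 1255 genes and 2 members in URE mice (3963 and 5 with all), with *Prkca*, *Prkcb* and *Prkcq* no longer called. Under the block the paired calls that changed are given with each gene, and the block changed no other call of a member. Library totals in place of TMM moved the median difference of mean log2 CPM over all genes from -0.12 to -0.45 in WT and from -0.06 to -0.39 in URE mice, with 793 genes higher and 3885 lower in WT (1798 and 2466 with TMM) and 955 higher and 3641 lower in URE mice (1695 and 2268 with TMM). The cause of these shifts was not tested. Depth limits *Prkcz* in WT cells, where no library held more than 47 counts.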
